A study of Rattus norvegicus with 24 samples.

Results

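In rat quadriceps muscle, 7 genes that mark the muscle stem cell or drive the formation of muscle were measured across rest, exhausting treadmill training and training with acupoint catgut embedding. They are the rows of the deposited table named Pax7, Myf5, Cdh15, Megf10, Myod1, Myog and Myf6, and make up 7 of the 21067 genes listed. All 7 passed the limit for testing, a mean of at least 0.1 FPKM over the 24 libraries, which left 14772 genes. FPKM, fragments scaled to the length of the transcript and to the mapped fragments of the library, can be compared between genes of different length.

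The satellite cell is the stem cell of skeletal muscle and lies between the muscle fibre and its basal lamina. Pax7 is the transcription factor that defines it, and after injury or loading its descendants divide and fuse with fibres under the control of the myogenic regulatory factors Myf5, Myod1, Myog and Myf6. These 4 proteins are basic helix-loop-helix factors that pair with E proteins and bind the E-box of their target genes. Adult fibres also transcribe some of them, Myf6 above all, so their mRNA in whole muscle does not come from satellite cells alone.

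The libraries came from Sprague-Dawley rats of both sexes that were 6 weeks old at the start, with 6 rats and 6 libraries in each of 4 groups. All rats, the controls too, were first made used to the treadmill for a few days, and the controls then did no training. The treadmill rats trained for 7 weeks at a rising load and then ran to exhaustion. The catgut 1 rats had pieces of absorbable collagen thread placed at 6 acupoints (Bai Hui, Qian Shen, Yang Wa, Qiang Feng, Han Gou and Xie Qi), rested, and then followed the training and the exhausting run of the treadmill rats. The catgut 2 rats had the thread at these acupoints and at Fei Shu, with the remaining steps alike. No group had the thread without the training, and none trained without the final run, so the effects of training, of the run and of the thread alone cannot be told apart. Most of these acupoints lie in the thigh, in the groove of the biceps femoris, and the catgut rats alone were put under ether. By the paper's design each group held males and females in equal number, but the labels give no sex, date or batch for a library. The summed level of Y-linked genes had a median of 6.90 FPKM in control, 5.19 in treadmill, 4.23 in catgut 1 and 0.0239 FPKM in catgut 2. Most catgut 2 libraries were thus near 0, so equal numbers of the sexes cannot be taken as given among them.

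Each library held 45945938 to 78278080 counts in all, and 0 libraries repeated the values of another. The commonest count above 0 was 4, and a count of 12 was taken as the limit of detection, which covers counting error only. Markers of the muscle fibre (5 of 6 in the table, among them Acta1, Ckm and Mb) summed to between 62748 and 86994 FPKM over the libraries. Of these 5, 0 had an unadjusted edgeR p under 0.05 in 4 of the 6 comparisons, 3 were lower in catgut 2 than in treadmill, and 1 was higher and 2 lower in catgut 2 than in control. Liver genes (6 of 6, among them Alb and Ttr) summed to 0.145 to 198 FPKM in the control group and 0.584 to 307 FPKM in the treadmill group, but to at most 0.725 FPKM in either catgut group. In a piece of whole muscle, fewer cells of a type and less mRNA in each of them cannot be told apart, and this holds for each of the 7 genes.

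The RefSeq promoter table for the build GRCr8 held 5 of the 7 genes, matched by symbol. The 250 bases before the gene start are shown for Cdh15, Myf6 and Myf5, the genes among these 5 with the smallest p-values in the comparisons of groups. Capitals mark the E-box CANNTG, the motif bound by the myogenic regulatory factors, which reads alike on both strands. The stretches are chr19:67814407-67814656 on the plus strand for Cdh15, chr7:44701314-44701563 on the minus strand for Myf6 and chr7:44692639-44692888 on the minus strand for Myf5, each written 5′ to 3′ along its gene.
Cdh15: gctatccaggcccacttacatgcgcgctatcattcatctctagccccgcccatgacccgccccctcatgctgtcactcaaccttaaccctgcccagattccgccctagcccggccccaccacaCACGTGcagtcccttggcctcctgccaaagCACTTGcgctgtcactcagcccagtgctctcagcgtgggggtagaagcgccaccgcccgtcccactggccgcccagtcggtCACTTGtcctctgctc
Myf6: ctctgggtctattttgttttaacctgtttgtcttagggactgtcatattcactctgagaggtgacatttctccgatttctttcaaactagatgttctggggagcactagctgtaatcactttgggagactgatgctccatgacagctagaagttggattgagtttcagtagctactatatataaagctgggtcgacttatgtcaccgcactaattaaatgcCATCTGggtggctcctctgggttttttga
Myf5: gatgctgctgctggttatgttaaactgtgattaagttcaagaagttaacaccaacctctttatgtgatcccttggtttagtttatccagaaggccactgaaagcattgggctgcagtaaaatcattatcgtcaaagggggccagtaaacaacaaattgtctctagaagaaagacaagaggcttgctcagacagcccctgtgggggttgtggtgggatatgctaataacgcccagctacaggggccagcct
The Cdh15 stretch held 3 E-boxes, the palindrome CACGTG farthest from the start and then a pair with the letters CACTTG. Myf6 had 1, CATCTG, and 1 match to the MEF2 motif, which is bound by the partners of the myogenic regulatory factors and overlaps here a run of alternating T and A. No E-box stood in the 250 bases before Myf5 or Pax7, and 2 stood before Myog, CACATG farther from its start than the other, CAGTTG. Of 33469 RefSeq promoters of the same length, 65.5% held at least 1 CANNTG, 30.8% at least 2 and 3.20% at least 4. CACGTG stood in 5.59% of them and a MEF2 match in 2.96%. A match says only that the letters are there.

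The 7 genes spanned more than 2 orders of magnitude. Myf6 was the highest, with a mean of 81.1 FPKM over the 24 libraries, above 94.9% of the genes tested. Myod1 followed at 24.6 FPKM, Myog at 7.88 FPKM and Cdh15 at 6.56 FPKM. Myf5 (0.770 FPKM), Pax7 (0.353 FPKM) and Megf10 (0.315 FPKM) were far lower, and Pax7 lay above only 14.8% of the genes tested. The counts show what this means for precision: Pax7 had 11 to 69 counts per library, with 1 library at the limit of detection, catgut 1 replicate 4 with 11 counts. Myf5 and Megf10 had at least 59 counts in every library, and Cdh15 at least 575. Between libraries, Myog varied most, with a coefficient of variation of 52.7%, and Myf5 least, with 28.2%.

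**Figure D1:**
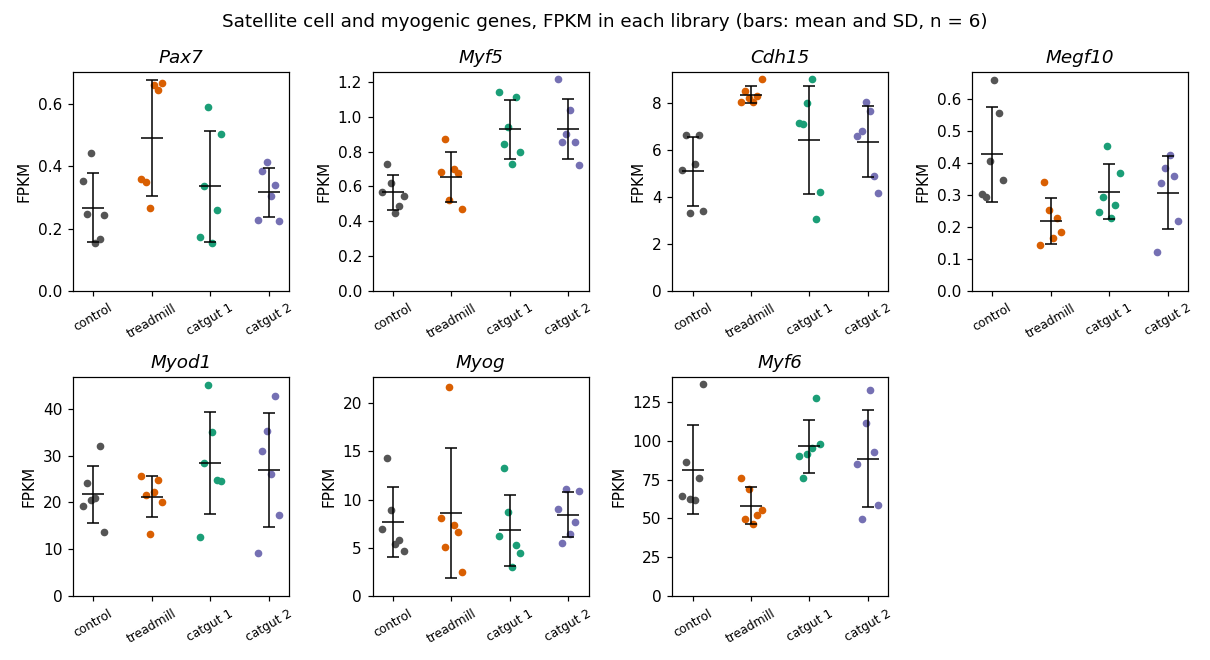
FPKM of each gene (vertical axes, linear) in the 24 libraries by group, with 1 point per library and bars for the mean and SD of 6 libraries. The treadmill libraries of Cdh15 sit between 8.06 and 9.02 FPKM, above all control and all catgut 2 libraries, while most other groups overlap.

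Among the 4 myogenic regulatory factors, the order Myf6, Myod1, Myog, Myf5 held in 23 of 24 libraries. Myf6 lay above Myod1 in 24 of 24 libraries, and Myog above Myf5 in 24 of 24. In treadmill replicate 3 alone Myog, at 21.7 FPKM, exceeded Myod1, at 13.2 FPKM. As a share of the summed FPKM of the 4 factors, Myf6 made up 66.6% to 87.9% in the control group (median 69.2%) and 60.7% to 70.5% in the treadmill group (median 65.2%). In the catgut 1 group the share was 62.6% to 81.9% (median 73.9%), and in the catgut 2 group 57.1% to 81.4% (median 68.6%). The ranges of the 4 groups overlapped.

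**Figure D2:**
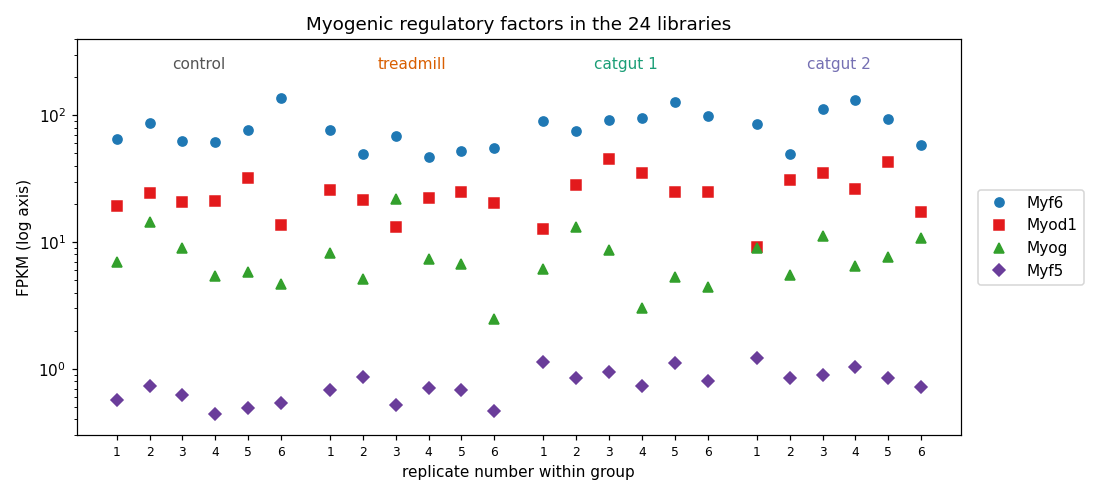
FPKM (log axis) of Myf6, Myod1, Myog and Myf5 in each of the 24 libraries, set out by group and replicate number. Myf6 is on top in every library and Myf5 at the bottom, and Myog stands above Myod1 in treadmill replicate 3 only.

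Each pair of groups was compared with the two-sided quasi-likelihood test of edgeR, with Benjamini-Hochberg adjustment over the 14772 genes. At an adjusted p under 0.05, 0 of the 7 genes passed in any of the 6 comparisons. The level differences below are therefore given as values with their unadjusted p, and none is a call of edgeR. Comparisons that share the treadmill or the control libraries are not independent of each other.

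Between the treadmill and control groups, 0 of 7 genes passed after adjustment (0.0542% of all genes tested did) and 3 of 7 had an unadjusted edgeR p under 0.05, Pax7 and Cdh15 higher and Megf10 lower, against 9.12% of all genes tested. DESeq2 called 2 of them after adjustment, Cdh15 and Megf10, and limma called 0. At an unadjusted p under 0.05 the 2 tools counted 4 genes each. The groups did not overlap for 1 of 7 genes, Cdh15, and for 0.447% of all genes tested. The median log2 fold change of the 7 genes was 0.18, beside -0.00 for all genes tested.

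Between the catgut 1 and treadmill groups, 0 of 7 passed after adjustment in edgeR (0.0474% of all genes tested) and 3 of 7 had an unadjusted p under 0.05, Myf5, Myf6 and Megf10, all higher in catgut 1, against 6.93% of all genes tested. DESeq2 called 1, Myf6, and limma 0, with 3 and 2 genes at an unadjusted p under 0.05. Between the catgut 2 and treadmill groups, 0 of 7 passed in edgeR (0.237% of all genes tested), and 3 of 7 had an unadjusted p under 0.05, Myf5 and Myf6 higher and Cdh15 lower, against 10.7% of all genes tested. Both DESeq2 and limma called 0, with 4 and 3 genes at an unadjusted p under 0.05. Cdh15 was also the only one of the 7 whose catgut 2 and treadmill libraries did not overlap, as for 1.04% of all genes tested. The median log2 fold changes of the 7 genes were 0.38 and 0.28, beside -0.01 and 0.00 for all genes tested.

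The catgut groups were not told apart by these genes. Between catgut 2 and catgut 1, edgeR called 0 of 7 after adjustment (0.00677% of all genes tested) and 0 of 7 at an unadjusted p under 0.05 (3.26%), and so did DESeq2 and limma. The 7 log2 fold changes ran from -0.14 for Myf6 (SE 0.213) to 0.34 for Myog (SE 0.302), with a median of -0.05 beside 0.01 for all genes tested. Without catgut 1 replicate 2, 1 gene, Myog, had an unadjusted edgeR p under 0.05 (log2 fold change 0.63, edgeR adjusted p = 0.969).

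The share of the 7 genes with an unadjusted p under 0.05 against the control group was near that of all genes in both catgut groups. In catgut 1 against control, edgeR called 0 of 7 after adjustment (0.0203% of all genes tested) and 1 of 7, Myf5, had an unadjusted p under 0.05, against 9.84% of all genes tested. DESeq2 and limma also called 0, with 2 and 1 genes at an unadjusted p under 0.05. Catgut 1 and control did not overlap for 1 of 7 genes, Myf5, beside 0.393% of all genes tested. In catgut 2 against control, edgeR called 0 of 7 (0.508% of all genes tested) and 1 of 7, Myf5, had an unadjusted p under 0.05, against 16.4% of all genes tested. DESeq2 called Myf5 after adjustment in this comparison and limma called 0, with 1 gene each at an unadjusted p under 0.05. The median log2 fold changes of the 7 genes were 0.28 and 0.23, beside -0.01 and -0.00 for all genes tested.

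**Figure D3:**
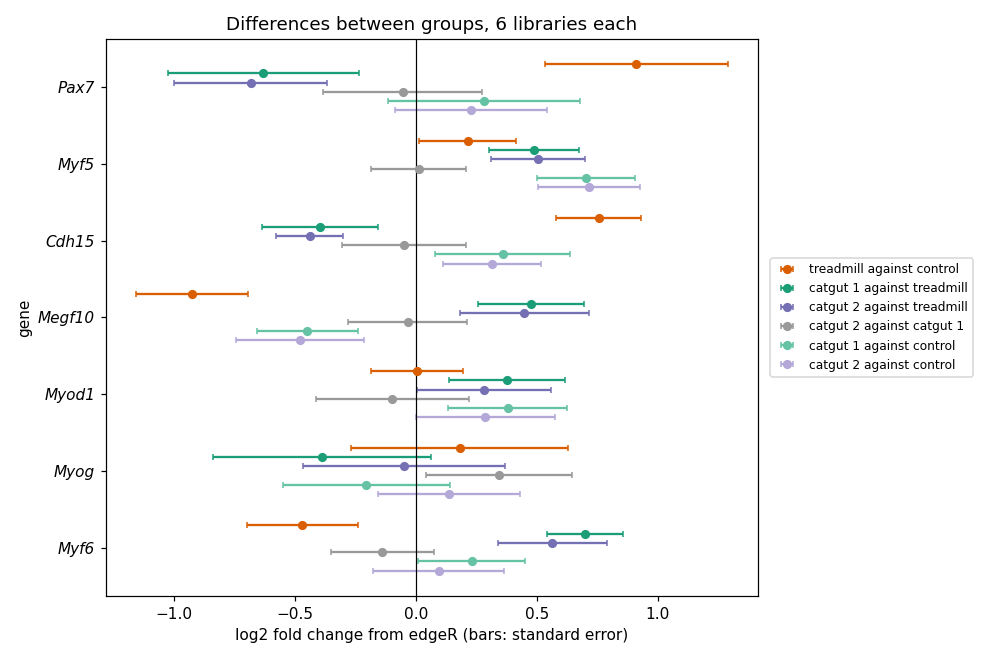
log2 fold change from edgeR (horizontal axis, with bars for the standard error) of the 7 genes in the 6 comparisons, 6 libraries per group. Cdh15 and Pax7 lie to the right and Megf10 to the left in treadmill against control. Myf6 and Myf5 lie to the right in both catgut groups against treadmill. The grey points of catgut 2 against catgut 1 run from -0.14 for Myf6 to 0.34 for Myog.

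Pax7 (ENSRNOG00000018739, chromosome 5, 158214616 to 158313426 on the minus strand), the paired-box factor that satellite cells need to persist, had 0.154 to 0.442 FPKM in the control group (median 0.244) and 0.267 to 0.669 FPKM in the treadmill group (median 0.504). In the catgut 1 group it had 0.154 to 0.590 FPKM (median 0.298), and in the catgut 2 group 0.225 to 0.413 FPKM (median 0.323). Treadmill replicates 4, 5 and 6 lay between 0.647 and 0.669 FPKM, above all other libraries, and treadmill replicates 1 to 3 lay among the control libraries. The treadmill mean was 0.492 ± 0.186 FPKM and the control mean 0.268 ± 0.111 FPKM (SD, n = 6 each). Treadmill against control gave a log2 fold change of 0.91 (SE 0.379, edgeR p = 0.0322, adjusted p = 0.520; exact permutation p = 0.0325, two-sided). Without any one of treadmill replicates 4, 5 and 6 or of control replicates 2, 4, 5 and 6, the edgeR p was between 0.0516 and 0.0744, and the log2 fold change between 0.77 and 0.90. With the replicate number as a block the edgeR p was 0.111 (log2 fold change 0.90). Both catgut groups were lower than the treadmill group, by log2 fold changes of -0.63 in catgut 1 (SE 0.395, exact permutation p = 0.156) and -0.68 in catgut 2 (SE 0.317, exact permutation p = 0.0779).

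Cdh15 (ENSRNOG00000027954, chromosome 19, 55669626 to 55689992 on the plus strand) encodes M-cadherin, the adhesion protein that holds the satellite cell to its fibre. It ranged from 3.31 to 6.65 FPKM in the control group (median 5.28) and from 8.06 to 9.02 FPKM in the treadmill group (median 8.27). The catgut 1 libraries spread from 3.04 to 9.04 FPKM (median 7.14), and the catgut 2 libraries from 4.17 to 8.06 FPKM (median 6.70). All 6 treadmill libraries were above all 6 control libraries and, by a small margin at the top, above all 6 catgut 2 libraries. They were also close together, with a mean of 8.37 ± 0.363 FPKM (SD, n = 6) against 5.09 ± 1.48 FPKM in the control group. Treadmill against control gave a log2 fold change of 0.76 (SE 0.176), with an edgeR p of 0.000899 and an adjusted p of 0.337, and an adjusted p of 0.00971 in DESeq2. The exact permutation p was 0.00216, the smallest that 6 against 6 libraries can give. The unadjusted p stayed under 0.05 in all 22 alternatives run, each library left out included. Catgut 2 against treadmill gave -0.44 (SE 0.139, edgeR p = 0.00768, adjusted p = 0.252; exact permutation p = 0.00216), with an unadjusted p over 0.05 when all 4 groups shared 1 fit. Catgut 1 against treadmill gave -0.40 (SE 0.239, edgeR p = 0.122; exact permutation p = 0.0368), with 5 of 6 libraries below all treadmill libraries and replicate 4, at 9.04 FPKM, above them all. Without that library the edgeR p was 0.0265 (log2 fold change -0.57). Against control, catgut 1 and catgut 2 had log2 fold changes of 0.36 (exact permutation p = 0.342) and 0.32 (exact permutation p = 0.195).

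Megf10 (ENSRNOG00000013674, chromosome 18, 52215682 to 52366238 on the plus strand), a transmembrane protein with EGF-like repeats whose loss causes a congenital myopathy and which acts in satellite cell proliferation, went the other way. It had 0.293 to 0.658 FPKM in the control group (median 0.375) and 0.142 to 0.340 FPKM in the treadmill group (median 0.206). The catgut 1 group lay between 0.227 and 0.454 FPKM (median 0.281), and the catgut 2 group between 0.120 and 0.424 FPKM (median 0.348). Of the treadmill libraries 5 of 6 were below all control libraries, and treadmill replicate 2, at 0.340 FPKM, lay within the control range. The treadmill mean of 0.218 ± 0.0725 FPKM stood against a control mean of 0.426 ± 0.149 FPKM (SD, n = 6 each), which gave a log2 fold change of -0.93 (SE 0.234). The edgeR p was 0.00168 with an adjusted p of 0.354, the DESeq2 adjusted p was 0.0274, and the exact permutation p was 0.00649. All 21 alternatives in which it was tested kept the unadjusted p under 0.05. Compared with treadmill, catgut 1 was higher by a log2 fold change of 0.48 (SE 0.218, edgeR p = 0.0475; exact permutation p = 0.0736) and catgut 2 by 0.45 (SE 0.267, edgeR p = 0.117). The first of these unadjusted values was under 0.05 in 9 of 21 alternatives and rose to 0.115 without catgut 1 replicate 3. The second was 0.0216 without catgut 2 replicate 1.

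Myf5 (ENSRNOG00000004768, chromosome 7, 49729533 to 49732764 on the minus strand), the earliest of the myogenic regulatory factors and one that many quiescent satellite cells already transcribe, was lowest in the control group. It had 0.445 to 0.728 FPKM there (median 0.557) and 0.470 to 0.871 FPKM in the treadmill group (median 0.679). The catgut 1 group had 0.728 to 1.14 FPKM (median 0.893) and the catgut 2 group 0.725 to 1.22 FPKM (median 0.879). All 6 catgut 1 libraries were above all control libraries, though the nearest pair differ only in the fourth decimal, and 5 of 6 catgut 2 libraries were above them too. Means were 0.566 ± 0.10 FPKM (SD, n = 6) in the control, 0.654 ± 0.143 in the treadmill, 0.928 ± 0.170 in the catgut 1 and 0.932 ± 0.173 FPKM in the catgut 2 group. Catgut 1 against control gave a log2 fold change of 0.70 (SE 0.204, edgeR p = 0.00433, adjusted p = 0.327; exact permutation p = 0.00216), and the DESeq2 adjusted p was 0.0707. Catgut 2 against control gave 0.71 (SE 0.211, edgeR p = 0.00501, adjusted p = 0.137; exact permutation p = 0.00433), with a DESeq2 adjusted p of 0.0346. Against the treadmill group the values were 0.49 for catgut 1 (SE 0.186, edgeR p = 0.0208; exact permutation p = 0.0152) and 0.51 for catgut 2 (SE 0.194, edgeR p = 0.0222; exact permutation p = 0.00866). In each of these, 3 of 6 catgut libraries were above all treadmill libraries. Replicate 1 was the highest library of both catgut groups, and without it the edgeR p became 0.0568 for catgut 1 and 0.0630 for catgut 2. Treadmill against control gave 0.21 (SE 0.201, exact permutation p = 0.247).

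Myf6 (ENSRNOG00000004878, chromosome 7, 49739646 to 49741540 on the minus strand), also known as Mrf4, is the factor that mature fibres keep transcribing. It is the neighbour of Myf5, 6881 bases away with 0 other genes of the table between them. The control libraries had 62.0 to 136 FPKM (median 70.4) and the treadmill libraries 46.6 to 76.2 FPKM (median 53.6). The catgut 1 libraries had 75.8 to 128 FPKM (median 93.4) and the catgut 2 libraries 49.8 to 133 FPKM (median 88.9). The treadmill group was thus the lowest of the 4, with 4 of 6 libraries below all control libraries, and only treadmill replicate 1 reached the range of catgut 1. The catgut 1 mean of 96.4 ± 17.1 FPKM stood against a treadmill mean of 58.1 ± 11.8 FPKM (SD, n = 6 each), for which the log2 fold change was 0.70 (SE 0.157). Its edgeR p was 0.000659 with an adjusted p of 0.180, its DESeq2 adjusted p 0.00556 and its exact permutation p 0.00433, and the unadjusted p was under 0.05 in all 22 alternatives. Catgut 2 against treadmill gave 0.56 (SE 0.226, edgeR p = 0.0272, adjusted p = 0.384; exact permutation p = 0.0519), with 4 of 6 libraries above all treadmill libraries. Leaving out treadmill replicate 2 or 4 or catgut 2 replicate 3 or 4 took this edgeR p to between 0.0555 and 0.0741. Treadmill against control gave -0.47 (SE 0.230, edgeR p = 0.0623, adjusted p = 0.555; exact permutation p = 0.0433). Control replicate 6, at 136 FPKM, stood above the other control libraries, and without it that log2 fold change was -0.23, with an unadjusted p over 0.05 as before. Without the same library catgut 1 against control moved from 0.23 (exact permutation p = 0.186) to 0.48, with an unadjusted edgeR p under 0.05 and an edgeR adjusted p = 0.425.

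Myod1 (ENSRNOG00000011306, chromosome 1, 102396538 to 102399248 on the plus strand), the factor of activated myoblasts and, in adult muscle, of fast fibres, was close in the control and treadmill groups. It had 13.6 to 32.0 FPKM in the control group (median 20.8) and 13.2 to 25.7 FPKM in the treadmill group (median 21.9). In the catgut groups it spread more widely, from 12.6 to 45.0 FPKM in catgut 1 (median 26.6) and from 9.21 to 42.8 FPKM in catgut 2 (median 28.6). All 4 groups overlapped, and replicate 1 was the lowest library of both catgut groups. Treadmill against control gave a log2 fold change of 0.00 (SE 0.191, exact permutation p = 0.950). Against treadmill the values were 0.38 for catgut 1 (SE 0.239, exact permutation p = 0.247) and 0.28 for catgut 2 (SE 0.278, exact permutation p = 0.558). Without catgut 1 replicate 1 the first was 0.52 and catgut 1 against control went from 0.38 to 0.53, both then with an unadjusted edgeR p under 0.05 (edgeR adjusted p = 0.692 and 0.503).

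Myog (ENSRNOG00000030743, chromosome 13, 51126459 to 51129048 on the plus strand) encodes myogenin, the factor of differentiating myoblasts, which adult fibres raise when they lose their nerve and which is known to be higher in slow and oxidative fibres. It had 4.66 to 14.3 FPKM in the control group (median 6.37) and 2.48 to 21.7 FPKM in the treadmill group (median 7.00). The catgut 1 group lay between 3.04 and 13.2 FPKM (median 5.75) and the catgut 2 group between 5.46 and 11.1 FPKM (median 8.37). Both the lowest and the highest of the 24 libraries were treadmill libraries, and all 4 groups overlapped. The log2 fold changes were 0.18 for treadmill against control (SE 0.449, exact permutation p = 0.972), -0.39 for catgut 1 against treadmill (SE 0.452, exact permutation p = 0.708) and -0.05 for catgut 2 against treadmill (SE 0.419, exact permutation p = 0.649). Without treadmill replicate 3 the signs of all 3 turned, to -0.36, 0.16 and 0.50. The last of them also turned without catgut 2 replicate 2 (0.06) or replicate 4 (0.03).

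Over the 24 libraries the 7 genes varied largely apart from each other. Of their 21 pairs, 0 had an adjusted permutation p under 0.05 for Pearson's r of log2 CPM (counts scaled to the library total after TMM normalization). The same count was found for deviations from the group means. The neighbours Myf5 and Myf6 had r = 0.41 (permutation p = 0.0457, adjusted p = 0.342) and rho = 0.52 (permutation p = 0.0107, adjusted p = 0.113). Their r was 0.33 without the 2 libraries farthest from the median of Myf5, and 0.29 for deviations from the group means. Cdh15 and Megf10 had r = -0.40 (permutation p = 0.0488, adjusted p = 0.342) and rho = -0.55 (permutation p = 0.00628, adjusted p = 0.113). For them r was -0.48 without the 2 farthest libraries and -0.05 within groups. Myf5 and Megf10 had r = -0.42 over all libraries (permutation p = 0.0416, adjusted p = 0.342), and -0.07 without the 2 farthest libraries. Within groups, with all libraries kept, their r was -0.57 (permutation p = 0.00322, adjusted p = 0.0676). For this p the deviations were shuffled over all 24 libraries. That makes no allowance for the group means removed, so the p is somewhat too small.

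Myod1 and Myog were set against the myosin heavy chains that mark slow (Myh7) and fast (Myh1, type IIx) fibres. Myh7 ran from 0.0984 to 417 FPKM over the libraries, a range wide in each group, and Myh1 from 1689 to 4121 FPKM. Myog was higher where Myh7 was higher, with r = 0.45 (permutation p = 0.0280, adjusted over 4 pairs 0.0757) and rho = 0.52 (permutation p = 0.00935, adjusted p = 0.0283). Without the 2 libraries farthest from the median of Myog, r was 0.58 (adjusted permutation p = 0.0177), and within groups it was 0.47 (adjusted permutation p = 0.0412). With Myh1 the sign was the opposite, r = -0.43 (permutation p = 0.0379, adjusted p = 0.0757) and rho = -0.50 (permutation p = 0.0142, adjusted p = 0.0283). Within groups this r was -0.49 (adjusted permutation p = 0.0412). Both p-values within groups came from deviations shuffled over all 24 libraries, with no allowance for the group means removed. They are thus somewhat too small, and with values this near 0.05 neither is a firm call. Over all groups but without the 2 farthest libraries r was -0.34 (adjusted permutation p = 0.250), so the r of -0.43 rests in part on those libraries. On log2(FPKM + 1) both relations were weaker, with r = 0.38 for Myh7 (permutation p = 0.0667, adjusted p = 0.133) and -0.40 for Myh1 (permutation p = 0.0518, adjusted p = 0.133). Myod1 showed neither relation, with r = -0.04 for Myh7 (permutation p = 0.865) and 0.07 for Myh1 (permutation p = 0.730).

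**Figure D4:**
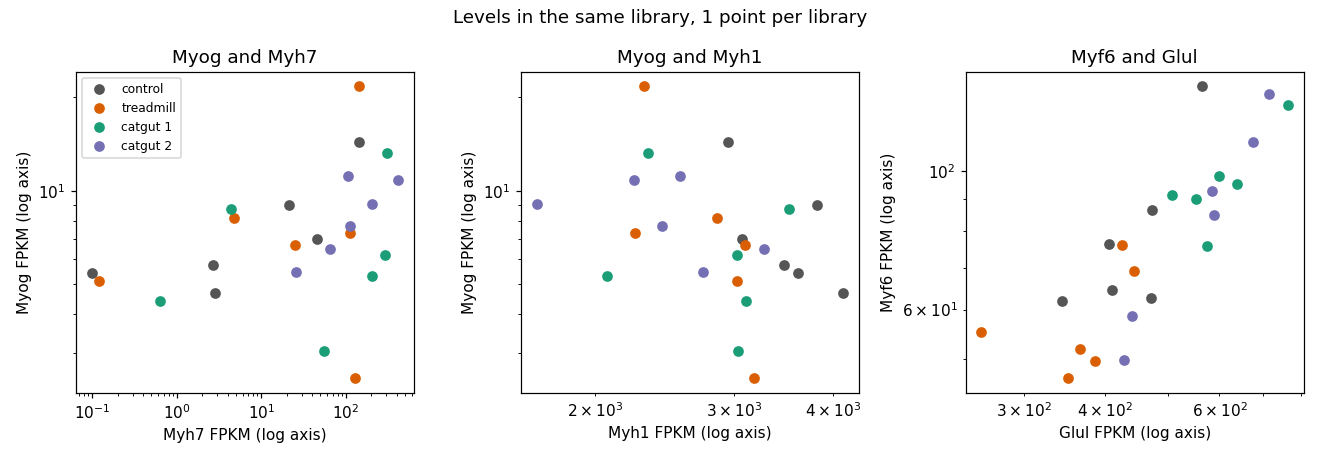
FPKM in the same library (both axes log), 1 point per library and coloured by group, for Myog against Myh7, Myog against Myh1 and Myf6 against Glul. Myog is higher where Myh7 is higher and lower where Myh1 is higher, with wide scatter, and Myf6 is higher where Glul is higher (r = 0.85 on log2 CPM).

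For each of the 7 genes, the 3 tested genes with the most similar profile over the 24 libraries were listed by Pearson's r of log2 CPM. Candidates were the tested genes with an established symbol, so each r was picked as among the highest of many and was not tested. It describes libraries of all 4 groups, which differed in depth, with a median of 7.52e+07 counts in control and 5.63e+07 in catgut 1. Myf6 was most like Glul, which encodes glutamine synthetase (r = 0.85, rho = 0.87, r = 0.83 within groups), followed by Il6r, the interleukin-6 receptor (r = 0.81), and Cct5 (r = 0.78). Myog was most like Hsd17b4 (r = 0.84) and Ehhadh (r = 0.82), both enzymes of peroxisomal beta-oxidation, and Lipe, the hormone-sensitive lipase (r = 0.83). Within groups these 3 values were 0.88, 0.83 and 0.86. Myf5 was most like P4ha2, a collagen prolyl hydroxylase (r = 0.80), Tmem245 (r = 0.79) and Jmjd6 (r = 0.77), which within groups dropped to 0.51, 0.57 and 0.58. Megf10 was most like Pja2 (r = 0.81), Psat1 (r = 0.80) and Dync1i2 (r = 0.78). Cdh15 was most like the ligand Wnt4 (r = 0.75), Pwwp2b (r = 0.73) and Fbxw4 (r = 0.71). The weakest best matches were those of Pax7 (Hps4, Prr12 and Pi4k2a, r = 0.68, 0.67 and 0.67) and Myod1 (Tbc1d10c, Enox1 and Plpp1, r = 0.68, 0.68 and 0.67).

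Genes tied to satellite cells were mixed, in a list that includes Pax7, Cdh15, Myf5 and Megf10 themselves, so its counts and medians are not separate from theirs. The counts of the lists below stand beside the share of all genes tested with an unadjusted edgeR p under 0.05 in either direction, 9.12% in treadmill against control, 6.93% and 10.7% in catgut 1 and catgut 2 against treadmill, 9.84% and 16.4% in the same groups against control, and 3.26% in catgut 2 against catgut 1. Of 15 tested, Pax7, Cdh15, Itga7, Sdc4 and Spry1 had an unadjusted edgeR p under 0.05 and were higher in the treadmill than in the control group, and Megf10, Chodl and Met were lower, with 0 past the adjustment. Spry1, an inhibitor of growth factor signalling that marks quiescent satellite cells, had 10.2 FPKM in the treadmill and 7.44 FPKM in the control group (log2 fold change 0.50, SE 0.169, edgeR adjusted p = 0.471). It was higher than control in catgut 1 (0.60) and catgut 2 (0.68) too. Sdc4, the proteoglycan syndecan-4, had 5.06 FPKM in the control group, 7.84 in the treadmill, 10.9 in the catgut 1 and 10.8 FPKM in the catgut 2 group, with log2 fold changes against control of 0.63, 1.08 and 1.08. In catgut 1 against treadmill the list had 2 higher and 0 lower at an unadjusted p under 0.05, and in catgut 2 against treadmill 1 higher and 1 lower, all of them among the 7 genes described above. The medians of the list were 0.09, -0.10 and 0.17 in these 3 comparisons. Its count was 3 higher and 1 lower for catgut 1 against control, 4 higher and 0 lower for catgut 2 against control, and 0 for catgut 2 against catgut 1.

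The Notch pathway keeps satellite cells quiescent and is also active in vessel walls. Of 13 genes tested, 5 were higher and 0 lower in the treadmill than in the control group at an unadjusted edgeR p under 0.05, the ligands Dll1 and Dll4, the receptor Notch3 and the targets Hes1 and Heyl. Hes1 had 10.7 FPKM against 4.93 FPKM, a log2 fold change of 1.13 (SE 0.228, edgeR adjusted p = 0.180). The median of the list was 0.30. Against treadmill, Notch3 was lower in catgut 1 (-0.44) and, with Hey1, in catgut 2 (-0.44 for Notch3), and 0 genes were higher. Against control, 2 of 13 were higher in catgut 1 (9.84% of all genes tested had such a p in either direction) and 5 of 13 in catgut 2 (16.4%), Hes1 and Dll4 in both, and 0 lower. None of these passed the adjustment.

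Partners of the myogenic regulatory factors, such as the E proteins Tcf3, Tcf4 and Tcf12 and the MEF2 factors, and their inhibitors, such as the Id proteins, gave few differences. Of 16 such genes described here, 0 were higher at an unadjusted edgeR p under 0.05 in any of the 6 comparisons, and 0 had an adjusted p under 0.05. The count of lower ones was 0 in treadmill against control, in catgut 2 against treadmill and in catgut 2 against catgut 1. In catgut 1 against treadmill 2 were lower, Id2 and Twist1. Against control 4 of 16 were lower in catgut 1 and 3 of 16 in catgut 2, Id2 and Mef2c in both, beside 9.84% and 16.4% of all genes tested in either direction, so the catgut 2 count is near the background. Id2, which binds E proteins and keeps them from the myogenic factors, had 1.72 FPKM in the control, 1.51 in the treadmill, 0.890 in the catgut 1 and 1.24 FPKM in the catgut 2 group, with log2 fold changes against control of -0.96 and -0.48 in the catgut groups (edgeR adjusted p = 0.351 and 0.262). Mef2c was lower than control in them by -0.26 and -0.46 (edgeR adjusted p = 0.490 and 0.155).

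Genes downstream of the myogenic regulatory factors gave small counts. Of 12 targets of myogenin and of denervation tested, Chrnb1 was higher in treadmill against control, and Fbxo32, the ubiquitin ligase atrogin-1, was lower in catgut 2 against treadmill (30.6 and 75.4 FPKM, log2 fold change -1.26, edgeR adjusted p = 0.140). It was also lower in catgut 2 than in catgut 1 and control, with Chrnb1 and Myl4 higher than control, and in the comparisons of catgut 1 with treadmill and control 0 of 12 had an unadjusted p under 0.05. Of 14 genes of fusion and early differentiation, embryonic myosin Myh3 was higher in catgut 2 than in control by 1.22 (4.59 and 1.99 FPKM, edgeR adjusted p = 0.124) and than in treadmill by 1.04. Jsrp1, a protein of the junctional sarcoplasmic reticulum, was lower in catgut 2 than in treadmill by -0.36 (143 and 180.4 FPKM, edgeR adjusted p = 0.0560). Mymx, the fusion peptide myomixer, averaged 0.0141 FPKM in catgut 1 and 0.327 ± 0.379 FPKM (SD) in treadmill (edgeR adjusted p = 0.424). At most 2 of the 14 were higher and at most 2 lower in any comparison. Of 8 proliferation genes tested, Pcna alone was higher in both catgut groups than in treadmill (by 0.30 and 0.36), and 0 had an unadjusted p under 0.05 in treadmill against control. The medians of the list in catgut 1 and catgut 2 against treadmill were -0.04 and -0.02. Against control, Pcna was higher in both catgut groups, while Mcm3 was lower in catgut 1 (-0.84) and Birc5 in catgut 2 (-1.20). Mcm3 was higher in catgut 2 than in catgut 1 (1.16). Of 6 fibre type genes tested, Atp2a2 was higher (1.71) and Myh1 lower (-0.51) in catgut 2 than in control, with 0 in the other 5 comparisons. None of the genes in this paragraph had an edgeR adjusted p under 0.05.

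Other genes moved across the same groups, and their values belong beside those of the 7 genes. Of 12 clock genes, 5 were lower and 0 higher in treadmill against control at an unadjusted edgeR p under 0.05. In catgut 1 against treadmill 7 were higher and 2 lower, and in catgut 2 against treadmill 7 higher and 3 lower. Per2 rose in both, from 2.10 FPKM in the treadmill group to 8.96 FPKM in catgut 1 (edgeR adjusted p = 0.0188) and 9.80 FPKM in catgut 2 (edgeR adjusted p = 0.00691). Arntl fell from 7.49 to 1.46 FPKM in catgut 2 (edgeR adjusted p = 0.00494) and had 2.20 FPKM in catgut 1 (edgeR adjusted p = 0.123). The control libraries ranged from 1.11 to 11.4 FPKM for Arntl, with Dbp between 7.18 and 140 FPKM. These are also the comparisons in which Myf6 and Myf5 had higher values in the catgut groups, and the part of the clock genes in those results was not tested.

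Of the markers of other cell types, 2 of 5 for smooth muscle and pericytes (Tagln and Acta2) and 1 of 4 for endothelium (Kdr) were higher in treadmill than in control at an unadjusted edgeR p under 0.05. The summed smooth muscle and pericyte level was 86.5 to 160 FPKM in the control group and 110 to 228 FPKM in the treadmill group, and 117 to 316 and 138 to 247 FPKM in catgut 1 and catgut 2. Against control, 3 of these 5 were higher in each catgut group, and Rgs5 passed the adjustment in catgut 2 (0.58, edgeR adjusted p = 0.0417). For endothelium the summed level was 31.1 to 60.2 FPKM in the control, 31.7 to 58.0 in the treadmill, 27.9 to 56.6 in the catgut 1 and 34.7 to 53.8 FPKM in the catgut 2 group. At least 1 endothelial marker was also higher in catgut 2 against each of the other groups, and 3 of 4 against control. All 6 liver genes were lower in both catgut groups than in treadmill and 5 of 6 lower than in control at an unadjusted p under 0.05, and 0 had such a p between treadmill and control. Single libraries carry much of these values: the medians of the summed level were 0.479 FPKM in the control, 4.54 in the treadmill, 0.213 in the catgut 1 and 0.510 FPKM in the catgut 2 group, so by the median catgut 2 was not lower than control. Ttr and Apoa2 were at 0 in all catgut 1 libraries. Of the 5 mesenchymal and the 5 macrophage and leukocyte markers 0 had an unadjusted p under 0.05 in any comparison. Schwann cell markers gave 2 of 6 higher in catgut 2 against control, and adipocyte markers 1 of 5 lower in treadmill and 2 of 5 lower in catgut 1 against control, with 1 higher in catgut 2. Of 2 Y-linked genes tested, 0 had an unadjusted p under 0.05 in any comparison, though their log2 fold changes in catgut 2 against control were -1.29 and -1.09. The part of sex in the comparisons with catgut 2 was not tested beyond the fit with the Y-linked level as a covariate. The part of these cell types in the differences of Pax7, Cdh15, Megf10 and Myf5 was not tested.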

How the data were processed

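Poly(A) mRNA of quadriceps muscle was sequenced in pairs by the authors, who deposited 1 table with 2 values per gene and library, a raw count (a whole number, not normalized) and FPKM. The deposited FPKM values were scaled by the authors to the length of the transcript and to the mapped fragments. HISAT2 2.0 and StringTie 1.3.0 are named in the submitters' processing notes, and the genome build and annotation are not given in the sources used here, so coordinates are those of the table. The commonest counts above 0 were 4 and 8, so 1 fragment may add about 4 counts, which makes low counts look more precise than they are. Groups were taken from the labels.

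The members and gene lists were chosen with earlier results of these data known. Tests on the deposited counts covered the 14772 genes whose FPKM averaged 0.1 or more over the 24 libraries. They were run with edgeR 4.0.16 (R 4.3.3), TMM normalization and the quasi-likelihood test, each pair of groups fitted alone, and p-values were adjusted by Benjamini-Hochberg over all of them. The standard error is the size of the log2 fold change over the square root of F. Exact permutation tests covered the 924 arrangements of 12 libraries on log2(FPKM + 1), two-sided. Correlations used log2 CPM (prior count 2) with 100000 resamples, and 4 of the 8 planned pairs with fibre genes were run, since Myh2 and Myh4 were not analysed here. For deviations from group means the resamples ran over all 24 libraries and not inside each group. Named genes are the 7 members, the 3 genes most like each, and genes of a list with an unadjusted p under 0.05. A gene of the list of partners and inhibitors is not reported here and was left out of its counts. Alternatives were no filter, a mean FPKM of at least 1, median ratios, DESeq2 1.42.0, limma 3.58.1 on log2(FPKM + 1) or with 0.1 in place of 1, 1 fit over all 4 groups, the replicate number as a block, the summed Y-linked level as a covariate and each library left out, and, chosen after seeing the data, counts divided by 4. Steps were tested on simulated data, and figures were drawn with matplotlib 3.10.9.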

Additional observations from a re-analysis of the deposited data

Results flagged for a closer look

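Myog in treadmill replicate 3 was 21.7 FPKM, far from the other 5 treadmill libraries at 2.48 to 8.14 FPKM, and the gap was 0.706 of the range of the group. The same library ranked 1 of 24 for Lipe (29.4 FPKM), 3 for Ehhadh (18.8 FPKM), 4 for Hsd17b4 (27.8 FPKM) and 7 for Myh7 (143 FPKM), and it had the lowest median correlation with the other libraries, 0.934. Myf6 in control replicate 6 was 136 FPKM, with the other 5 control libraries at 62.0 to 86.4 FPKM and a gap of 0.671 of the range. That library ranked 9 of 24 for Glul (564 FPKM), 7 for Il6r (3.72 FPKM) and 1 for Myh1 (4121 FPKM). Lipe, Ehhadh and Hsd17b4 were picked as most like Myog, and Glul and Il6r as most like Myf6, over these same libraries. Their ranks are therefore in part given by that choice and are not separate evidence on the flagged values. In all, 28 combinations of gene and group were examined in this way and 2 stood apart. Chance alone gives about 1 in 20 if the values are normally spread, which was not checked for FPKM. The count of 2 of 28 is thus close to that rate.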

How the results depend on the processing

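Of the 7 genes, 0 had an edgeR adjusted p under 0.05 in any alternative fit by edgeR or limma. DESeq2 called 2 for treadmill against control, 1 for catgut 1 against treadmill and 1 for catgut 2 against control. The count at an unadjusted p under 0.05 was 1 for treadmill against control, 1 for catgut 1 against treadmill, and 0 for catgut 1 and for catgut 2 against control with a mean FPKM of at least 1, since Pax7, Myf5 and Megf10 were then not tested. For catgut 1 against control it was 2 with DESeq2 and with counts divided by 4. With 1 library left out at a time it ran from 1 to 2 for catgut 1 against control and from 0 to 1 for catgut 2 against catgut 1. The labels do not say whether the replicate numbers pair the libraries. The deviations of same-numbered libraries from their group means correlated between -0.226 and 0.232, with at most 1 of 6 pairs over 0.1 in a comparison. Libraries of unlike number were not compared in this way, so these values do not settle whether the numbers pair them. With the replicate block, 2 genes in place of 1 had an unadjusted p under 0.05 in catgut 2 against control, and 2 in place of 3 in treadmill against control, where Pax7 had an edgeR p of 0.111. Of the pairs with fibre genes, 1 had an adjusted permutation p under 0.05 without the 2 farthest libraries and 2 within groups, and 0 over all libraries, all for Pearson's r. The 2 within groups rest on p-values that make no allowance for the group means removed.

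Signs turned in 49 fold changes under an alternative, all of genes and comparisons with an unadjusted edgeR p over 0.05. In treadmill against control, Myod1 was -0.000402 with no filter and -0.0180 and -0.0184 with limma at pseudocounts of 1 and 0.1, and Myog -0.0144 and -0.0384. In catgut 2 against treadmill, Myog was 0.184 and 0.233 with limma and 0.186 with the replicate block. In catgut 2 against catgut 1, Pax7 was 0.0130 with limma at 0.1 and 0.0622 with the block, Myf5 -0.00388 with counts divided by 4, and Cdh15 0.0278 and 0.0411 with limma and 0.0334 with the block. With 1 library left out, ranges that held both signs were, in catgut 2 against catgut 1, -0.201 to 0.126 for Cdh15, -0.132 to 0.111 for Megf10, -0.134 to 0.109 for Myf5, -0.303 to 0.0612 for Myod1 and -0.183 to 0.127 for Pax7. In treadmill against control they were -0.0873 to 0.141 for Myod1 and -0.362 to 0.477 for Myog. For Myog they were also -0.495 to 0.0900 in catgut 1 against control, -0.679 to 0.157 in catgut 1 against treadmill and -0.233 to 0.501 in catgut 2 against treadmill, and for Myf6 -0.0362 to 0.334 in catgut 2 against control. The cause was not tested. Of 906 fold changes under an alternative, 853 kept both their sign and their side of the adjusted threshold of 0.05, and some of these crossed an unadjusted p of 0.05. None of the genes passed that threshold in the main fit, so keeping its side was likely from the start and says little about stability. Depth limits Pax7 most, with 11 to 69 counts per library.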
